A study of Rattus norvegicus with 12 samples.

Results

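Circular RNA (circRNA) expression in the rat orbitofrontal cortex (OFC) was compared directly between 3 rats that had self-administered heroin and 3 rats that had self-administered sucrose, a drug against a natural reinforcer. These 6 arrays were taken by their group labels from the 12 of the series, 1 rat per array. All were adult male Sprague Dawley rats, 8 weeks old on arrival. Heroin rats carried a jugular vein catheter, were food restricted and pressed a lever for 0.03 mg/kg infusions of heroin during 6 h sessions. Sucrose rats had no surgery and pressed for chocolate-flavoured sucrose pellets during 2 h sessions. Both groups had 10 daily sessions and were killed directly after the last one. The reinforcer, the surgery and the session length therefore differed together between the groups, and their parts in a difference cannot be told apart. The paper describes food restriction and single housing along with the catheter surgery. It does not say whether either held for the sucrose rats, so these may have differed as well. Each reinforcer also had its own control group of 3 rats, saline infusions in catheterised rats for heroin and chamber exposure in naive rats for sucrose. The control arrays entered the normalization and the common spread of the limma fit. They also entered a fit with slide and row as blocks and the test of the difference between the 2 effects, and their values are set side by side below. In what follows, all 6 arrays means that no heroin or sucrose array was left out.

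A circRNA forms when the splicing machinery joins the end of an exon back to the start of the same or an upstream exon. The closed loop has no free ends, so it resists the exonuclease RNase R and tends to outlast linear mRNA. Neurons are rich in circRNAs, many of them from genes of the synapse, and some can bind microRNAs or proteins. The arrays carried probes against these back-splice junctions, and RNA was treated with RNase R before it was labelled with the dye Cy3. The linear mRNAs of the host genes were not measured by these probes.

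Of 14145 circRNA probes, 75 could be named through the annotation in the study's supplement, which gives the host gene, the junction coordinates and the 60 base probe. The study chose this list on its heroin and saline arrays, so it holds the same 3 heroin arrays as the comparison with sucrose and is not independent evidence of a direction. The list named 57 host genes, of which 50 matched RefSeq (GRCr8) by symbol and 5 by an older symbol. No source used here names the genome build of the junction coordinates. No neuronal or glial marker could be checked, because the other probes carry no gene names here. In bulk tissue, fewer cells of a type and less RNA per cell cannot be told apart.

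Among the 75 named probes, the 5 lowest p-values in limma were those of 2 postsynaptic genes. Grin2b encodes the GluN2B subunit of the NMDA glutamate receptor, and Anks1b encodes an ankyrin-repeat protein of the postsynaptic density. The 3 Grin2b probes are shown first, in lower case, because they share no run longer than 7 bases and so read the gene at separate junctions on the minus strand of chromosome 4.
Grin2b rno_circRNA_011731, chr4:234015682-234016281: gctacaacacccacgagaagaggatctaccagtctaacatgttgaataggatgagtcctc
Grin2b rno_circRNA_011733, chr4:234135667-234136096: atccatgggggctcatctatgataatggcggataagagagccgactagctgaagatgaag
Grin2b rno_circRNA_011734, chr4:233823875-234259073: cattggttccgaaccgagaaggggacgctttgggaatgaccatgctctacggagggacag

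The 5 Anks1b probes, on the plus strand of chromosome 7, fell into 2 families, and capitals mark the bases that all probes of a family share. The first 3 circRNAs end at the same coordinate and share 26 bases, and the last 2 end at another coordinate and share 29 bases. Probes within a family are therefore not independent readings.
Anks1b rno_circRNA_015168, chr7:31288682-31468836: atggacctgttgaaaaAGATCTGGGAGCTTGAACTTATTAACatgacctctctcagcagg
Anks1b rno_circRNA_015171, chr7:31434492-31468836: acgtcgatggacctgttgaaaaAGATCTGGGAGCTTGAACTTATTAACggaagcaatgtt
Anks1b rno_circRNA_015172, chr7:31463445-31468836: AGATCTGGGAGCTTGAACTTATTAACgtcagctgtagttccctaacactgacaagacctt
Anks1b rno_circRNA_015180, chr7:31696916-31750132: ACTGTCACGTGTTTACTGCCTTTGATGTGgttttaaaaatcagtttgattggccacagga
Anks1b rno_circRNA_015182, chr7:31716481-31750132: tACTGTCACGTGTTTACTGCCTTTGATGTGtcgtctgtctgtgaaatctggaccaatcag

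The arrays differed in ways that the reinforcer need not explain. All heroin arrays lay in row 1 of slide 1, sucrose 1 and sucrose 2 in row 2 of slide 1, and sucrose 3 in row 1 of slide 2. The heroin arrays were dimmer than the sucrose arrays without overlap, with a median circRNA intensity after background subtraction of 85.8 to 109 against 124 to 141, and the part of this in the results was not tested. The share of circRNA probes well above background was 96.4% to 97.5% after heroin and 98.2% to 98.5% after sucrose. Probes against linear transcripts, read relative to the circRNA median of the same array, ranged over -1.55 to -1.10 log2 units after heroin and over -1.48 to -1.18 after sucrose, which overlapped. In a principal component analysis of the 6 arrays, the first component held 39.9% of the variance, with sucrose 3 at one end (44.0), heroin 2 at the other (-37.0) and the other arrays between -12.0 and 6.13. Sucrose 3 and heroin 2 thus both stood apart from the other arrays on this component. Of the 6 arrays only sucrose 3 lay on slide 2, so the calls of annotated circRNAs that changed without it are given below.

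Most circRNAs had similar levels in the 2 groups. The mean log2 intensities correlated with r = 0.987 across the 13979 circRNAs tested, which are not independent replicates. Array pairs correlated at 0.975 to 0.981 within heroin, 0.967 to 0.976 within sucrose and 0.946 to 0.981 across the groups. The study threshold, a fold change above 1.5 with an unadjusted p below 0.05 in limma, was passed by 796 circRNAs (5.69%). Of these, 604 (4.32%) were lower after heroin than after sucrose and 192 (1.37%) were higher. The median difference over all 13979 was 0.04 log2 units.

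Only a few circRNAs passed a correction for the number tested. At a Benjamini-Hochberg adjusted p below 0.05 in limma there were 4 (0.0286%), all lower after heroin, against 1614 at an unadjusted p below 0.05. Of these 4, 2 were Grin2b circRNAs and 2 were probes without a name here, ASCRPR000092 and ASCRPR004188. Leaving out heroin 2, heroin 3, sucrose 1 or sucrose 3 left 0 at that level, leaving out heroin 1 left 2, and leaving out sucrose 2 gave 7. Without sucrose 3 the smallest adjusted p in limma was 0.0967, and 1247 circRNAs still had an unadjusted p below 0.05. Without heroin 2 the smallest adjusted p in limma was 0.222, and 890 had an unadjusted p below 0.05. On the deposited log2 values, 16 passed it with no array left out. The common spread behind the 4 and the 16 also drew on the control arrays. With only the 6 heroin and sucrose arrays in the fit of the values behind the 4, 0 passed. The smallest adjusted p in limma was then 0.0853.

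The count past the study threshold also moved with single arrays. Without sucrose 3 it was 609 (4.36%), with 404 lower and 205 higher. Of the 796, 428 also passed without sucrose 3, which is 53.8% of the 796 and 70.3% of the 609. It ran from 510 without heroin 2 to 1167 without sucrose 1. In the deposited values 395 (2.83%) passed, 331 of them lower. The groups did not overlap for 2073 circRNAs (14.8%), and 549 of the 796 were among these.

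**Figure D1:**
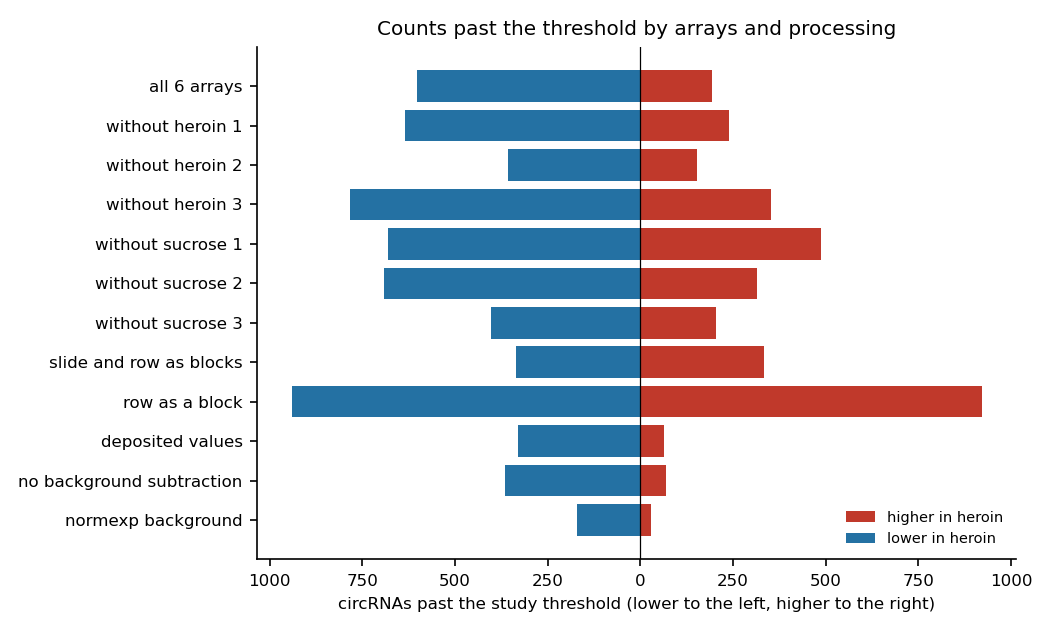
Number of circRNAs past the study threshold on the x axis, lower after heroin to the left in blue and higher to the right in red, for all 6 arrays, with each array left out, and under other processing (rows). Lower calls outnumbered higher calls 604 to 192 with all 6 arrays, and 337 to 333 with slide and row as blocks.

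Dim circRNAs gave more calls than bright ones. Split into 5 equal bins by mean level, the lowest bin (0.68 to 5.10 log2 units) held 266 of the calls and the highest (8.51 to 17.3) held 104. Of the 796, 713 were well above background on all 6 arrays. The Grin2b and Anks1b circRNAs had mean levels of 7.15 to 9.38 over the heroin and sucrose arrays and were well above background on every one of the 6 arrays, as were all 75 annotated circRNAs.

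**Figure D2:**
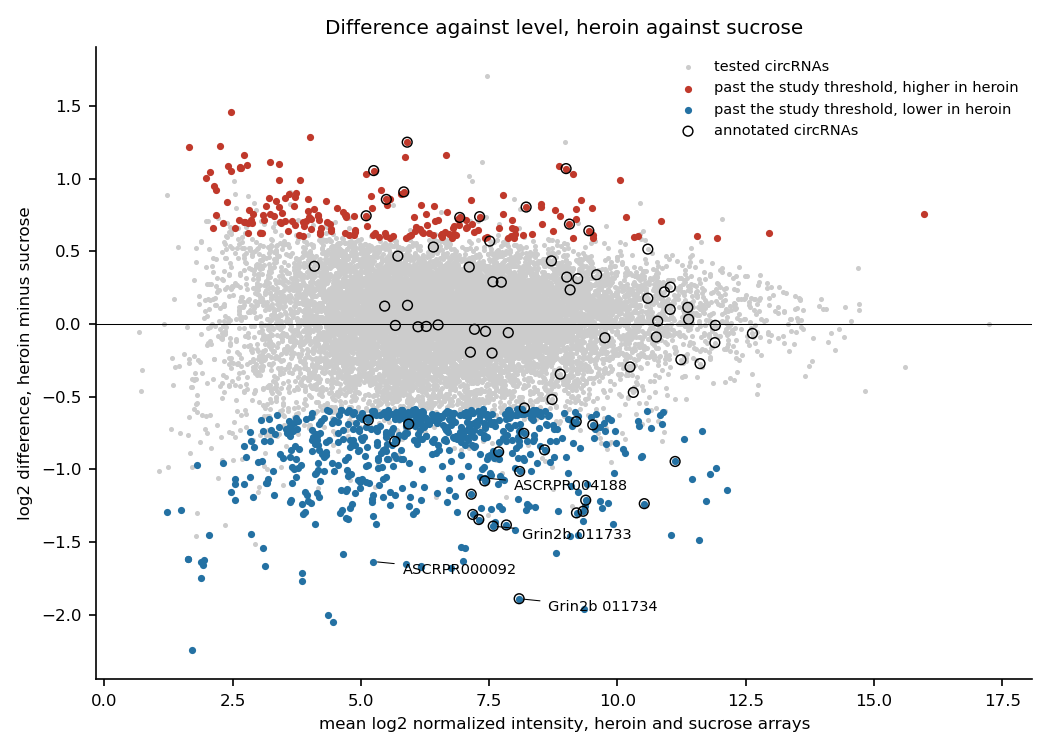
Log2 difference, heroin minus sucrose, on the y axis against the mean log2 normalized intensity of the 6 arrays on the x axis, one point per circRNA tested, with those past the study threshold in colour, the 75 annotated circRNAs ringed and the 4 at an adjusted p below 0.05 labelled. Differences spread most at low levels, and Grin2b 011734 lay at -1.89 in the middle of the range of levels.

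All 3 Grin2b circRNAs were lower after heroin. For 011734, normalized log2 intensities were 7.51, 6.98 and 6.92 on the heroin arrays and 9.13, 8.60 and 9.35 on the sucrose arrays. Every heroin array lay more than 1 log2 unit below every sucrose array. The mean fell from 9.03 ± 0.39 (SD, n = 3) in sucrose to 7.14 ± 0.32 in heroin, a log2 difference of -1.89 with an SE of 0.25, or 3.71-fold (limma, adjusted p = 0.0383). For 011733, the heroin arrays read 7.08, 6.82 and 6.74 and the sucrose arrays 8.32, 8.13 and 8.37. The difference was -1.39 with an SE of 0.20, or 2.62-fold (limma, adjusted p = 0.0470). For 011731, the Grin2b circRNA that the study took to qPCR, the heroin arrays read 8.55, 9.00 and 8.51 and the sucrose arrays 9.97, 9.79 and 10.17. Again the groups did not overlap, and the difference was -1.29 with an SE of 0.21 (limma, adjusted p = 0.0617). In the deposited log2 values its adjusted p by limma was 0.0234, and the difference was -1.24.

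The Grin2b values were also computed with other arrays and with the array layout in the fit. Without sucrose 3 the differences were -1.73 for 011734, -1.34 for 011733 and -1.19 for 011731, all past the study threshold, with adjusted p in limma of 0.198, 0.281 and 0.318. Slide 1 also held the saline arrays, with only saline 1 beside the heroin arrays in row 1 and the other 2 beside the sucrose arrays in row 2. For 011731, saline 1 read 9.04 and the other saline arrays 9.81 and 9.63. A fit with slide and row as blocks was added after the data were seen. Its row term rests on these saline arrays, with saline 1 alone in row 1. Its slide term rests on sucrose 3, so its difference compares heroin with sucrose 1 and sucrose 2 only. The difference was -1.34 for 011734 (unadjusted p = 0.0136, limma), -0.66 for 011733 (unadjusted p = 0.0531) and -0.51 for 011731 (unadjusted p = 0.128). In that fit 011733 and 011731 no longer passed the study threshold.

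The 5 Anks1b circRNAs were lower after heroin as well, by 1.08 to 1.35 log2 units. For 015180, the heroin arrays read 8.53, 8.20 and 8.93 and the sucrose arrays 9.66, 9.71 and 10.18. Its difference of -1.30, with an SE of 0.22, had an adjusted p of 0.0638 in limma. For 015182 of the same probe family, the heroin arrays read 8.74, 8.52 and 9.06 and the sucrose arrays 9.71, 9.90 and 10.35, a difference of -1.21. In the other family, 015171 read 6.80, 6.31 and 6.76 after heroin and 7.95, 7.45 and 8.50 after sucrose. Its difference was -1.35, and those of 015172 and 015168 were -1.17 and -1.08. No Anks1b circRNA overlapped between the groups, and sucrose 3 was the highest of the 6 arrays for each. Without sucrose 3 the 5 differences ran from -1.13 to -0.90 and all passed the study threshold, where 4.36% of all circRNAs tested did. With slide and row as blocks, 015180 (-1.15) and 015182 (-1.01) still passed it, and 015168 (-0.67), 015171 (-0.77) and 015172 (-0.62) did not.

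**Figure D3:**
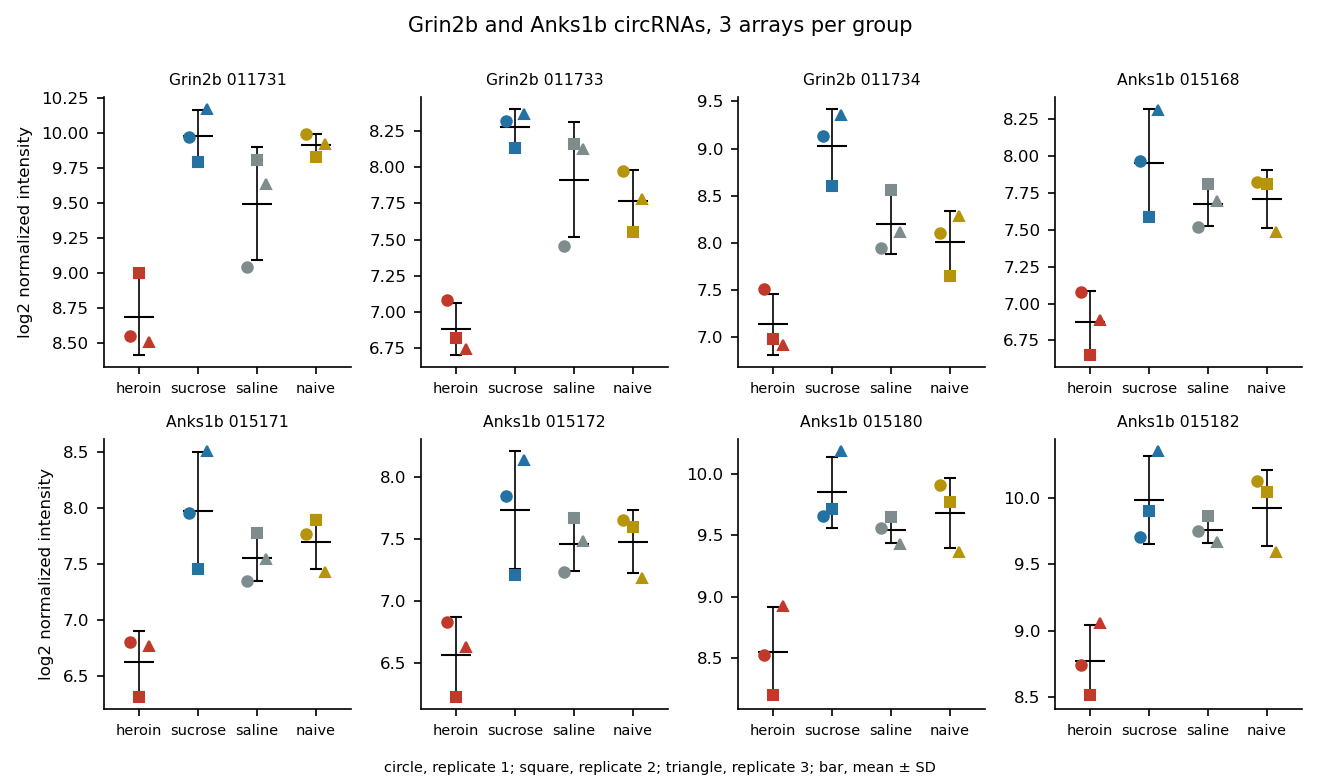
Log2 normalized intensity of the 3 Grin2b and 5 Anks1b circRNAs on the y axis for each of the 12 arrays, by group on the x axis, with symbols for replicates and bars for the mean ± SD (n = 3). In all 8 panels the heroin arrays lie below the sucrose arrays, and saline 1 is the lowest saline array for the Grin2b circRNAs. The heroin and sucrose arrays did not overlap for 14.8% of all circRNAs tested.

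The other members of the glutamate receptor and scaffold list did not pass the threshold. Grik4 rno_circRNA_016172, from a kainate receptor subunit gene, differed by -0.19. Magi2 encodes a synaptic scaffold, and its 2 circRNAs, whose probes share 39 bases, differed by 0.25 and 0.22. Of the 11 circRNAs in this list, 8 fell and 0 rose, with a median difference of -1.21 against 0.04 over all circRNAs tested, of which 4.32% fell and 1.37% rose. All 8 came from Grin2b and Anks1b, on a list the study chose with the same heroin arrays.

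Across all 75 annotated circRNAs, 21 passed the study threshold as lower and 11 as higher after heroin, where 4.32% and 1.37% of all circRNAs tested did. Since the list was chosen for a difference of the same heroin arrays from saline, these counts do not stand as support for a direction. The median difference was -0.02, and 32 of the 75 did not overlap between the groups, where 14.8% of all circRNAs tested did not. Without sucrose 3, 18 were lower and 12 higher, and 25 passed in both fits. Of the 32 that passed with all 6 arrays, 21 passed with any 1 array left out, 29 in the deposited values, 23 after normexp background correction and 10 with slide and row as blocks.

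**Figure D4:**
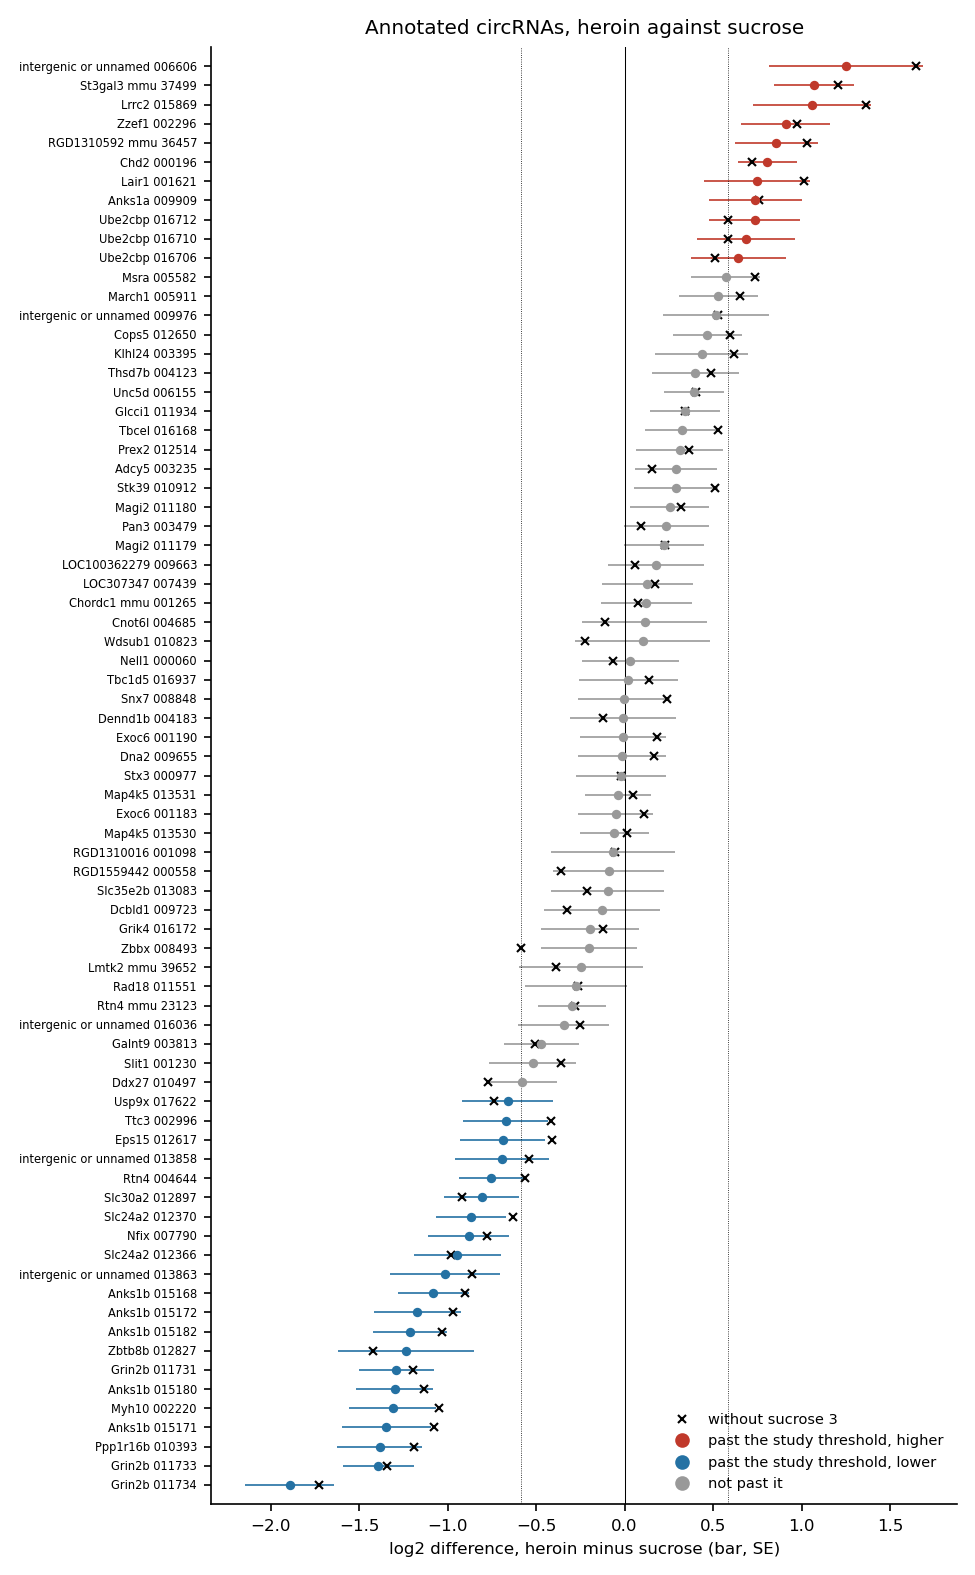
Log2 difference, heroin minus sucrose, on the x axis for the 75 annotated circRNAs (rows, named by host gene and number), with the SE as a bar, the value without sucrose 3 as a cross, and dotted lines at the 1.5-fold limit. The values run from -1.89 for Grin2b 011734 to 1.25 for the intergenic 006606, and the crosses of Ttc3, Eps15, 013858, Rtn4 004644 and the Ube2cbp circRNAs fall inside the dotted lines.

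Among genes of signalling and the cytoskeleton, 2 more circRNAs fell by over 1 log2 unit. Ppp1r16b encodes a regulatory subunit of protein phosphatase 1. Its rno_circRNA_010393 read 7.36, 6.95 and 7.11 after heroin and 8.36, 8.31 and 8.91 after sucrose, without overlap, a difference of -1.38 with an SE of 0.24 (limma, adjusted p = 0.0783). Saline 1 read 7.62 for it and saline 2 and saline 3 read 8.56 and 8.40, and with slide and row as blocks the difference was -0.33. Myh10 encodes a nonmuscle myosin heavy chain. Its rno_circRNA_002220 read 6.62, 6.19 and 6.76 after heroin and 7.69, 7.45 and 8.36 after sucrose, a difference of -1.31, which was -0.92 with both blocks and still past the study threshold. The other 6 circRNAs of the kinase, cAMP and GTPase list (2 of Map4k5 and 1 each of Stk39, Lmtk2, Prex2 and Adcy5) did not pass, with differences between -0.25 and 0.31.

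Of 4 solute carrier circRNAs, 3 passed as lower, where 4.32% of all circRNAs tested did. Slc24a2 encodes a potassium-dependent sodium and calcium exchanger. Its rno_circRNA_012370 read 8.16, 8.17 and 8.11 after heroin and 8.59, 8.96 and 9.48 after sucrose, a difference of -0.87 with an SE of 0.20 (limma, adjusted p = 0.162). The heroin arrays lay within 0.1 log2 units of each other, and the sucrose arrays were spread more widely (SD 0.45 against 0.03). Its second circRNA, rno_circRNA_012366, read 10.82, 10.59 and 10.54 after heroin and 11.65, 11.62 and 11.52 after sucrose, a difference of -0.95. With slide and row as blocks 012370 (-0.67) still passed and 012366 (-0.85, unadjusted p = 0.115, limma) did not. Slc30a2 encodes a zinc transporter, and its rno_circRNA_012897 differed by -0.81, or -0.20 with slide and row as blocks. Slc35e2b rno_circRNA_013083 differed by -0.09 and did not pass.

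In the chromatin and transcription list, 2 circRNAs fell, 1 rose and 2 did not pass, where 4.32% of all circRNAs tested fell and 1.37% rose. Zbtb8b, a zinc finger gene, had rno_circRNA_012827 at 9.89, 9.19 and 10.62 after heroin and at 11.50, 11.16 and 10.77 after sucrose, a difference of -1.24 with an SE of 0.38. Heroin 3 and sucrose 3 lay within 0.2 log2 units of each other. Nfix, a transcription factor of the nuclear factor I family, had rno_circRNA_007790 lower by 0.88 log2 units (1.84-fold), and with slide and row as blocks the difference was -0.10. Chd2, a chromatin remodeller, had rno_circRNA_000196 at 8.89, 8.62 and 8.35 after heroin and at 8.03, 7.79 and 7.64 after sucrose. Its difference of 0.81, with an SE of 0.17, was higher after heroin without overlap (limma, adjusted p = 0.122) and was 0.63 with both blocks (unadjusted p = 0.0682).

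The largest rise with a named host gene was that of St3gal3, a sialyltransferase. Its mmu_circRNA_37499, a rat junction listed under a mouse identifier, read 9.62, 9.66 and 9.32 after heroin and 8.48, 8.17 and 8.74 after sucrose. The difference was 1.07 with an SE of 0.23 (limma, adjusted p = 0.131) and 1.21 without sucrose 3. The groups did not overlap, but saline 1 (9.17) lay nearer the heroin arrays than saline 2 (8.42) and saline 3 (8.44), and with slide and row as blocks the difference was 0.47. Zzef1 rno_circRNA_002296 (0.91), RGD1310592 mmu_circRNA_36457 (0.86) and Lrrc2 rno_circRNA_015869 (1.06) also rose. All 3 lost the call after normexp background correction, and Zzef1 also lost it with slide and row as blocks (0.71, unadjusted p = 0.178, limma). For Lrrc2, heroin 3 (5.23) overlapped sucrose 3 (5.33), and the difference was 1.36 without sucrose 3.

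The 3 circRNAs of Ube2cbp, a gene of ubiquitin ligation now named Ube3d, rose by 0.64 to 0.73 log2 units. For rno_circRNA_016706, the heroin arrays read 10.09, 9.61 and 9.59 and the sucrose arrays 9.82, 8.68 and 8.86. Sucrose 1 lay above 2 of the heroin arrays, so the groups overlapped, and the same held for rno_circRNA_016710 and rno_circRNA_016712. The probes of 016706 and 016710 share 44 of 60 bases and start at the same coordinate, so that these 2 are close to a single reading, and the third probe shares no run over 7 bases with them. Capitals mark the shared bases.
Ube2cbp rno_circRNA_016706, chr8:93582945-93586349: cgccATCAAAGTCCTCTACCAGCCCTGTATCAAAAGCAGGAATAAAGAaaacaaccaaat
Ube2cbp rno_circRNA_016710, chr8:93582945-93598135: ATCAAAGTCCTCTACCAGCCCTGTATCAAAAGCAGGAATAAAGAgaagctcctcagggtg
Ube2cbp rno_circRNA_016712, chr8:93592105-93606648: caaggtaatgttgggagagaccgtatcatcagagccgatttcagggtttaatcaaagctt
None of the 3 passed the study threshold without heroin 1, without sucrose 2 or without sucrose 3, and over all arrays left out in turn the difference of 016706 ran from 0.42 to 0.99. Without sucrose 3 the differences were 0.51 for 016706, 0.58 for 016710 and 0.58 for 016712.

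The other circRNAs of the ubiquitin and protein turnover list did not move one way. Ttc3, which encodes a ubiquitin ligase, had rno_circRNA_002996 lower by 0.67 log2 units, and it no longer passed without heroin 3 (-0.51) or without sucrose 3 (-0.42). Usp9x, which encodes a deubiquitinase, had rno_circRNA_017622 lower by 0.66 log2 units, and it no longer passed without heroin 2 (-0.50) or without sucrose 2 (-0.49). March1 rno_circRNA_005911 (0.53), Cops5 rno_circRNA_012650 (0.47) and Klhl24 rno_circRNA_003395 (0.43) did not pass with all arrays. In all, 3 of the 8 circRNAs in this list rose, 2 fell and 3 did not pass. Of all circRNAs tested, 1.37% rose and 4.32% fell, and the list was chosen with the same heroin arrays. Without sucrose 3 the calls changed places: March1 (0.65), Cops5 (0.60) and Klhl24 (0.62) passed as higher, and the Ube2cbp circRNAs and Ttc3 did not pass.

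Of the axon growth and guidance list, 1 of 4 circRNAs passed, where 5.69% of all circRNAs tested did. Rtn4 encodes the neurite outgrowth inhibitor Nogo. Its rno_circRNA_004644 read 7.91, 7.95 and 7.53 after heroin and 8.38, 8.35 and 8.93 after sucrose, a difference of -0.75 that no longer passed the study threshold without sucrose 3 (-0.57). The second Rtn4 circRNA, mmu_circRNA_23123, starts at the same coordinate and its probe shares 23 bases with the first, yet it differed by only -0.30 and its heroin arrays (10.07, 10.15 and 10.07) overlapped the sucrose arrays (10.12, 10.64 and 10.42). Slit1, a secreted guidance ligand, and Unc5d, a netrin receptor gene, gave differences of -0.52 and 0.39 and did not pass.

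Membrane trafficking hosts stood near 0. Of 7 circRNAs, only that of Eps15, an endocytic adaptor, passed (-0.69), and it lost the call without heroin 2 (-0.56) or sucrose 3 (-0.41). Over all circRNAs tested, 5.69% passed. The circRNAs of Stx3, Snx7, Dennd1b, Tbc1d5 and the 2 of Exoc6 differed by -0.05 to 0.02. For Exoc6 rno_circRNA_001183, for example, the heroin arrays read 7.52, 7.17 and 7.51, the sucrose arrays 7.35, 7.24 and 7.77, and the saline arrays 6.83, 6.69 and 6.08. With all arrays none of the mRNA decay and helicase hosts passed. Ddx27 rno_circRNA_010497 differed by -0.58 and passed without sucrose 3 (-0.77), as did Msra rno_circRNA_005582, from a methionine sulfoxide reductase gene (0.57 with all arrays and 0.74 without). Of the remaining listed circRNAs that passed with all arrays, Lair1 rno_circRNA_001621 (0.75) lost the call without heroin 3 (0.63) or sucrose 2 (0.41), and Anks1a is described with the qPCR set below. The intergenic rno_circRNA_013863 and rno_circRNA_013858 were lower by 1.01 and 0.69 log2 units, and with slide and row as blocks the differences were -0.35 and -0.07, no longer past the threshold. The latter also lost the call without heroin 1 (-0.65), heroin 2 (-0.60) or sucrose 3 (-0.54).

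The study had taken 10 circRNAs to qPCR, and on these arrays 3 of the 10 fell, 2 rose and 5 did not pass the threshold. Of all circRNAs tested, 4.32% fell and 1.37% rose past it. The 10 came from the list chosen with the same heroin arrays, so these counts do not stand as support for a direction. Grin2b 011731, Slc24a2 012370 and Rtn4 004644 were lower after heroin without overlap, and in a two-sided exact permutation test over the 6 arrays each had p = 0.1, the smallest value that 3 against 3 allows. Anks1a encodes an adaptor of Eph receptors, and its rno_circRNA_009909 read 6.97, 8.17 and 7.90 after heroin and 7.10, 6.75 and 6.98 after sucrose. Heroin 1 lay among the sucrose arrays (exact permutation p = 0.3), and the difference of 0.74 became 0.49 without heroin 2, 0.63 without heroin 3 and 0.64 without sucrose 2, where it no longer passed. Ube2cbp 016706 had an exact permutation p of 0.3. Slit1 rno_circRNA_001230 read 8.96, 8.17 and 8.27 after heroin and 9.10, 8.55 and 9.30 after sucrose (exact permutation p = 0.2). Adcy5 rno_circRNA_003235, from an adenylyl cyclase gene, and Prex2 rno_circRNA_012514, from a gene for an exchange factor of the GTPase Rac, differed by 0.29 and 0.31, each with an exact permutation p of 0.4. Lmtk2 mmu_circRNA_39652, from a kinase gene, differed by -0.25 (exact permutation p = 0.5). Cnot6l rno_circRNA_004685, from a gene of mRNA deadenylation, read 11.04, 11.29 and 11.95 after heroin and 11.04, 12.03 and 10.86 after sucrose. Its difference of 0.11 turned to -0.11 without sucrose 3 (exact permutation p = 0.8 with all arrays). By qPCR in male rats, the paper reported circGrin2b, circAnks1a and circUbe2cbp as higher after heroin than after saline. On these arrays heroin differed from saline by -0.81, 1.19 and 0.71 for the same circRNAs, so Grin2b 011731 had the opposite sign. For sucrose against naive males, the paper reported circUbe2cbp as higher by qPCR and no significant change of its other heroin-associated circRNAs. On these arrays sucrose differed from naive by -0.09 for Ube2cbp 016706, so the rise was not seen.

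**Figure D5:**
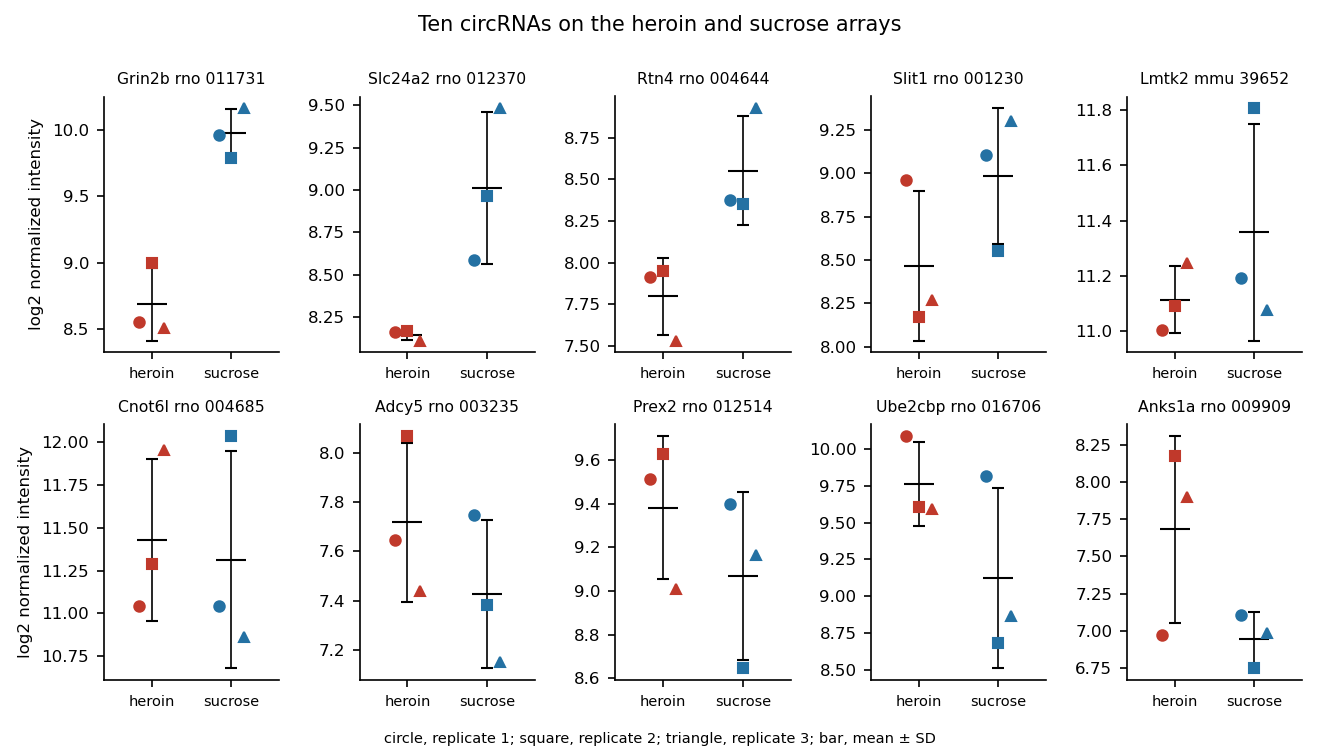
Log2 normalized intensity (y axis) on the 3 heroin and 3 sucrose arrays (x axis) of the 10 circRNAs that the study took to qPCR. Symbols mark replicates, and bars mark the mean ± SD. The groups are apart for Grin2b 011731, Slc24a2 012370 and Rtn4 004644, and overlap in the other 7 panels.

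A direct difference between the reinforcers also holds whatever separated their control groups. The contrasts with the controls are therefore given side by side, although they share arrays with the direct one. All 3 naive arrays lay on slide 2 with sucrose 3, while sucrose 1 and sucrose 2 lay on slide 1. A slide difference is therefore part of sucrose minus naive. For Grin2b 011734, heroin differed from saline by -1.07 and sucrose differed from naive by 1.02, and the mean of the sucrose group was the highest of the 4 groups. For Grin2b 011733 the values were -1.03 and 0.51, and for 011731 -0.81 and 0.06. For the Anks1b circRNAs, heroin differed from saline by -0.80 for 015168 and by -0.99 for 015182, and sucrose from naive by 0.06 to 0.28. Slc24a2 012370 differed by -0.62 in heroin against saline and by 0.63 in sucrose against naive, and 012366 by -0.65 and 0.60. The naive arrays read 8.20, 8.41 and 8.54 for 012370, close to the heroin arrays. For St3gal3 the values were 0.86 and 0.11, and for Ube2cbp 016706 they were 0.71 and -0.09. Exoc6 001183, which differed by -0.05 between heroin and sucrose, stood at 0.87 against saline, with sucrose at 0.05 against naive.

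The difference between the 2 effects, heroin minus saline against sucrose minus naive, was tested in the same limma fit. After Benjamini-Hochberg adjustment 0 circRNAs had a p below 0.05, the smallest being 0.401. Without adjustment 1221 did, and 990 (7.08%) were past the study threshold. Leaving out sucrose 3, so that sucrose and naive shared no slide, put 1515 past the study threshold. Among the annotated circRNAs 25 passed it as lower and 20 as higher, on a list that the study chose by one arm of this contrast. For Grin2b 011734 the difference of effects was -2.08 with an SE of 0.36, and for 011733 it was -1.54 with an SE of 0.29. For Anks1b 015180 it was -1.16, and for Slc24a2 012370 it was -1.25. Lrrc2 rno_circRNA_015869 had 2.23, with heroin minus saline at 1.11 and sucrose minus naive at -1.12.

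Most of the largest differences belonged to probes without a name here. ASCRPR000092 read 4.72, 4.05 and 4.50 after heroin and 5.87, 6.37 and 5.94 after sucrose, a difference of -1.63 with an SE of 0.21 (limma, adjusted p = 0.0383). Heroin differed from saline by under 0.01 log2 units and sucrose from naive by 0.88. With slide and row as blocks its difference was -1.97. ASCRPR004188 read 6.89, 6.88 and 6.88 after heroin and 7.89, 7.78 and 8.15 after sucrose, a difference of -1.06 with an SE of 0.15 (limma, adjusted p = 0.0470). Its heroin arrays agreed within 0.01 log2 units. The largest fall among circRNAs above background on all 6 arrays and without overlap was that of ASCRPR001344 (-2.05), followed after Grin2b 011734 by ASCRPR012827 (-1.77), ASCRPR005714 (-1.67) and ASCRPR011441 (-1.66). In the deposited values, which keep the background, these were -1.02, -0.67, -1.38 and -1.28, while Grin2b 011734 was -1.86.

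The largest rises by the same rule were smaller. ASCRPR011925 rose by 1.29 log2 units, ASCRPR004141 by 1.16, ASCRPR010799 by 1.11, ASCRPR002169 by 1.10 and ASCRPR012705 by 1.09, and the intergenic rno_circRNA_006606 by 1.25. All but ASCRPR004141 and 006606 had levels below 5 log2 units on all 6 arrays, and in the deposited values the differences of ASCRPR011925, ASCRPR010799, ASCRPR002169 and ASCRPR012705 were 0.53, 0.33, 0.36 and 0.22, each under 1.5-fold. For 006606, the heroin arrays read 6.93, 6.39 and 6.27 and the sucrose arrays 5.04, 4.73 and 6.06, and the call was lost without heroin 1 (1.05) or sucrose 2 (0.98).

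Sequence features of the 75 annotated probes followed the differences weakly at most. GC content ran from 28.3% to 61.7% with a median of 45.0%, and across the 75 its correlation with the difference was r = -0.09 (Spearman's rho 0.00). The genomic span between the back-splice ends ran from 173 to 435198 bp. Across the 75 its correlation with the difference was r = -0.25 (Spearman's rho 0.07). Of the 9 circRNAs with a span under 1000 bp, all but Thsd7b rno_circRNA_004123 (0.40) were lower after heroin in their means. Lower means were also found for 42 of the 75 annotated circRNAs and 6177 of the 13979 tested. Of the 9, 5 passed the threshold. By type, 22 of 56 exonic circRNAs passed (12 lower, 10 higher), 7 of 15 sense overlapping ones (all lower) and 3 of 4 intergenic ones, against 5.69% of all circRNAs tested. Without sucrose 3, 5 sense overlapping ones passed as lower and 2 as higher. These points share arrays, host genes and probe bases, and the list is the study's selection.

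The annotation lists up to 5 microRNAs predicted to bind each circRNA, which were not measured here. Of 245 microRNAs listed, 214 had a mature sequence in RefSeq (GRCr8). The microRNAs listed most often among the 21 circRNAs that fell are shown with the seed, bases 2 to 8, in capitals.
rno-miR-207: cUUCUCCUggcucuccucccuuu
rno-miR-466b-5p: uAUGUGUGuguguauguccaug
rno-miR-297: aUGUAUGUgugcauguaugcaug
Each was listed for 4 of the 21, and of all 75 annotated circRNAs rno-miR-207 was listed for 8, rno-miR-466b-5p for 6 and rno-miR-297 for 4. For rno-miR-207 these were the circRNAs of Myh10 and Slc30a2 and Anks1b 015180 and 015182, and for rno-miR-297 they were Grin2b 011734, Anks1b 015172, Slc24a2 012366 and Eps15. Grin2b 011734, Anks1b 015172, Slc30a2 and Eps15 were those of rno-miR-466b-5p. Among the 11 that rose, rno-miR-207 was listed for 1 and the others for 0. The 3 Grin2b circRNAs had no listed microRNA in common. The listing is a prediction, and no effect on a microRNA was measured.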

How the data were processed

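OFC RNA of single rats was treated with RNase R, labelled with Cy3 and hybridized to 1-colour circRNA arrays. The authors deposited unnormalized scanner intensities per spot from Agilent Feature Extraction, version 11.0.1.1, with flags for outliers and for spots well above background, and a table of log2 values that the methods describe as quantile-normalized with limma. Each deposited log2 column correlated at 0.999 to 1.00 with the log2 median signal before background subtraction.

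From the scanner files, background-subtracted intensities of 14145 circRNA probes, each spotted once, without outlier spots were log2-transformed and quantile-normalized over 12 arrays. The 13979 circRNAs well above background on 3 or more of the 12 arrays were fitted in R 4.3.3 with limma 3.58.1, 1 mean for each of the 4 groups and a common spread, with Benjamini-Hochberg adjustment. Groups were taken from the sample labels, and slide and row from the scanner headers. The fit was also run on simulated data without slide or row effects, so that run does not bear on the array layout.

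Circular RNAs were named by rule. These were the 10 taken to qPCR, and annotated ones past the study threshold or with a host gene listed more than once. The 6 largest rises and falls above background on all 6 arrays, without overlap and with the same sign in the deposited values, were added. Any at an adjusted p below 0.05 were named too. The members and gene lists were chosen with earlier results of these data known. Fold changes and p-values of the study's supplement, qPCR and behaviour were not used, apart from the qPCR directions quoted above. Alternatives used the deposited values, other background corrections, scaling and filters, only some arrays, the methods' t-test, each array left out, and slide, row or replicate number as a block. Precision is limited by having 3 arrays per group. No circRNA spot was saturated.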

Additional observations from a re-analysis of the deposited data

How the results depend on the processing

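With 796 circRNAs past the study threshold as reported, the count was 395 in the deposited values, 288 in these without sucrose 3 (an alternative added after seeing the data), 201 after normexp correction, 435 without background subtraction, 360 by the methods' t-test, 180 by that test on the deposited values and 1862 with row as a block, and it ran from 510 (without heroin 2) to 1167 (without sucrose 1) with arrays left out. The cause of these changes was not tested. The split into higher and lower was 192 and 604 as reported, 921 and 941 with row as a block, and 333 and 337 with slide and row as blocks (added after seeing the data).

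Of circRNAs at an adjusted p below 0.05, reported as 4, there were 16 in the deposited values and without subtraction, 13 after 75th percentile scaling, 11 with an intensity trend or a filter on all 12 arrays, 2 with no filter, and 0 in each of these: normalization or fit over the 6 arrays alone, both t-tests, slide 1 arrays only, blocks for slide, row, or both, array weights, and the deposited values without sucrose 3. They ran from 0 to 7 with arrays left out. At an unadjusted p below 0.05, reported as 1614, there were 1064 and 1046 by the t-tests, 1020 on slide 1 arrays only, 2637 with row and 676 with slide and row as blocks, and 890 to 1921 with arrays left out. The difference of effects, reported as 990, was 656 in the deposited values and 373 after normexp correction, and ran from 780 to 1515.

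With the replicate number of the labels as a block, 774 circRNAs passed the study threshold and 0 an adjusted p below 0.05. Same-numbered heroin and sucrose arrays deviated together with r of 0.09, 0.21 and 0.33, and sucrose 1 was nearer to heroin 2 (0.19), so the numbers were not taken to pair the rats.

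Of 55 named circRNAs, 49 kept their direction in the 15 alternatives computed for each, and the other 6 did not pass the study threshold as reported. Slide as a block gave the same values as leaving out sucrose 3, and slide 1 arrays only gave the same differences. These alternatives are therefore not separate checks. For Cnot6l 004685 the difference was -0.11 with slide as a block or with slide 1 arrays only and -0.64 with slide and row as blocks, and ran from -0.15 to 0.48 with arrays left out. Map4k5 013530 (reported as -0.06) and Exoc6 001190 (-0.01) turned to 0.043 and 0.068 in the deposited values, 0.034 and 0.048 after normexp correction and 0.036 and 0.044 without subtraction. With slide as a block or slide 1 arrays only, these were 0.011 and 0.18, Map4k5 013531 (-0.04) was 0.048 and Exoc6 001183 (-0.05) was 0.11. With arrays left out Map4k5 013530 ran from -0.12 to 0.011, 013531 from -0.12 to 0.048, Exoc6 001183 from -0.16 to 0.11, 001190 from -0.12 to 0.18 and Magi2 011179 from -0.014 to 0.45. After normexp correction 14 and with slide and row as blocks 26 no longer passed the study threshold. Only those of the 55 that passed as reported could lose the call. Among the 32 annotated circRNAs that passed as reported, 22 lost it with slide and row as blocks. The 3 arrays per group and, for dim circRNAs, signal close to background limit these values.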
